A study of Homo sapiens with 9 samples.

Results

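SNX29, a sorting nexin gene on the short arm of human chromosome 16, and the copies of it on the same chromosome were followed through 9 RNA-seq libraries of the human ovarian cancer cell line ES-2. The genes were chosen by name, as SNX29 and its copies, and no threshold on their values entered the choice: SNX29, SNX29P1, SNX29P2 and RP11-231C14.7, which are 4 of the 32997 rows of the expression table. The libraries fell into 3 groups of 3 by the genotype in the labels: an empty vector, overexpression of OTUB2, and overexpression of SNX29P2. All groups were the same cell line grown in RPMI-1640 medium with 10% fetal bovine serum, received no treatment, and had total RNA extracted with TRIzol. The sources used here do not state the vector backbone, the promoter, the exact SNX29P2 sequence introduced, or whether a group was a clone or a pool. Separate cultures are not stated for the libraries within a group, so each p-value below measures the spread between libraries, which may be technical.

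Sorting nexins are proteins that bind phosphoinositides on endosomal membranes through a PX domain and help to sort cargo between endosomes, the Golgi and the cell surface. SNX29 carries a RUN domain, a fold found in proteins that work with small GTPases, besides its PX domain. An unprocessed pseudogene is a copy made by duplication of genomic DNA, so it can keep the exons and introns of its parent. The short arm of chromosome 16 is rich in such duplicated segments, among them the NPIP genes and the pseudogenes of PKD1. Where copies are nearly identical, a short read can match several of them, and the way a counting program treats such reads then sets the value of each copy.

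In GRCh38, the build named in the submitters' processing notes, the table placed SNX29 at chr16:11976737-12574289, with 11298 exon bases. SNX29P1, annotated in GENCODE release 29 as an unprocessed pseudogene, lay at chr16:21376648-21386064, with 4 exons and 1007 exon bases. SNX29P2, annotated as a transcribed unprocessed pseudogene, lay at chr16:29350746-29370272, with 2113 exon bases. RP11-231C14.7 spanned SNX29P2, at chr16:29291220-29372110, with 11 exons and 4818 exon bases, and all rows lay on the plus strand. GENCODE 29 gave this last row the same name, SNX29P2, as a processed transcript. The exons of all 4 rows were the same as in GENCODE 29.

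SNX29P2 and RP11-231C14.7 are therefore not independent measurements of separate loci. They shared 1613 exon bases, which were 76.3% of the bases of SNX29P2 and 33.5% of those of RP11-231C14.7. Another 500 bases belonged to SNX29P2 alone and 3205 to RP11-231C14.7 alone. The map of exon positions shows that the shared bases lie in 5 exons toward the end of both rows, and that the last exon of RP11-231C14.7 goes on for 1838 bases that SNX29P2 does not have.

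**Figure D1:**
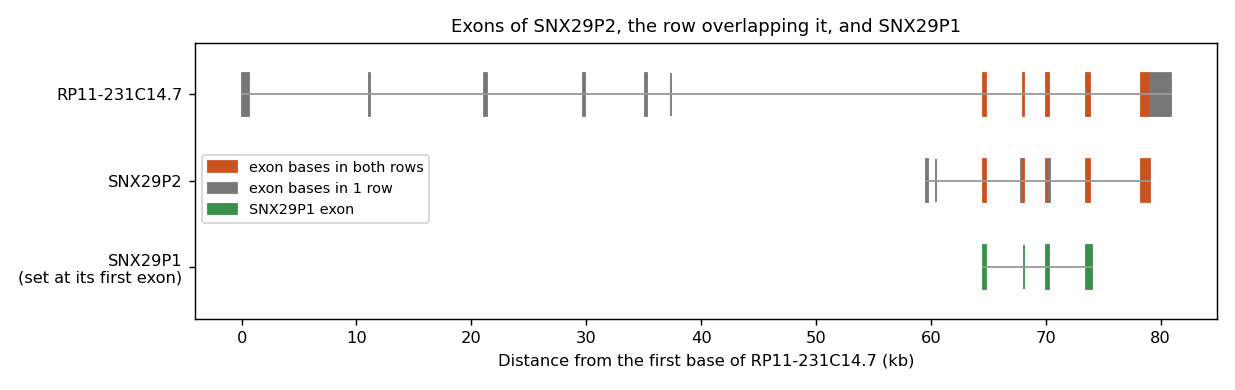
Exons of RP11-231C14.7, SNX29P2 and SNX29P1, with the distance from the start of RP11-231C14.7 in kilobases on the x axis and SNX29P1 moved so that its first exon lies under the matching exon of SNX29P2. Orange marks the 1613 exon bases in both rows, grey the bases in 1 row and green the 4 exons of SNX29P1, which sit under 4 of the shared exons at nearly the same spacing.

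SNX29P1 matched 4 exons of SNX29P2, and the same 4 matched coding exons of SNX29, so they were compared base by base from the GENCODE transcripts. In the order SNX29P2, SNX29P1 and SNX29, their lengths were 182, 182 and 181 bases for exon 1, and 71 bases in each copy for exon 2. Exon 3 had 246, 246 and 249 bases, and exon 4 had 376, 508 and 376 bases, of which only the first 376 bases of SNX29P1 were aligned. Over the 4 exons, SNX29P2 and SNX29P1 were 99.4% identical, with 5 substitutions in 875 aligned columns. SNX29P2 and SNX29 were 97.3% identical, with 20 substitutions and 4 gap columns in 878. SNX29P1 and SNX29 were 97.2% identical, with 21 substitutions and 4 gap columns.

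The first exon shows how the copies differ, since it holds 3 of the 5 differences between SNX29P2 and SNX29P1. Capitals mark each base that differs in, or is missing from, at least 1 of the other copies. Counted from the first base of the exon, SNX29P2 and SNX29P1 differed by C94T, A103G and C142T, with the base of SNX29P2 first. The exons lie at chr16:29355787-29355968 in SNX29P2, chr16:21376648-21376829 in SNX29P1 and chr16:12042897-12043077 in SNX29, all on the plus strand.
SNX29P2 exon 1: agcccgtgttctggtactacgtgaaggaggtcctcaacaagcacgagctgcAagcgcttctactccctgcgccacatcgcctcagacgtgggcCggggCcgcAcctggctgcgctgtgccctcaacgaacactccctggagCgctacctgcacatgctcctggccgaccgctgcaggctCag
SNX29P1 exon 1: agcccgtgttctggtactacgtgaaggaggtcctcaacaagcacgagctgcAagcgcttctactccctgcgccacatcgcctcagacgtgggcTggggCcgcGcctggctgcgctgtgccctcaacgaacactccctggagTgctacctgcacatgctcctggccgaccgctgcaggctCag
SNX29 exon 1: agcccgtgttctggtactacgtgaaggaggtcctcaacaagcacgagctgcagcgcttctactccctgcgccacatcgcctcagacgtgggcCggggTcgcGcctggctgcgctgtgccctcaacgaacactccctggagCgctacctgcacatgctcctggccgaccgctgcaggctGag

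The second exon is shown because the pseudogenes are identical there and both differ from SNX29. Capitals mark the differing bases, T1C and G40A with the base of SNX29P2 first. The exons lie at chr16:29359265-29359335, chr16:21380145-21380215 and chr16:12046384-12046454. The third exon was also identical in SNX29P2 and SNX29P1.
SNX29P2 exon 2: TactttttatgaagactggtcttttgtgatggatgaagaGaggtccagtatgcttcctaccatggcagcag
SNX29P1 exon 2: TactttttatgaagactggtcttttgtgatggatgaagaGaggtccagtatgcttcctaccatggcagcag
SNX29 exon 2: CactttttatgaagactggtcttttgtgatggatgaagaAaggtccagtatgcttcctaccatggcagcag

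The fourth exon holds the remaining differences between the pseudogenes, T52A and A145G with the base of SNX29P2 first. They are shown in windows of 31 bases with the differing base in capitals, at chr16:29364720-29364750 and chr16:29364813-29364843 in SNX29P2 and at chr16:21385593-21385623 and chr16:21385686-21385716 in SNX29P1.
SNX29P2 exon 4, first window: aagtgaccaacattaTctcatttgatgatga
SNX29P1 exon 4, first window: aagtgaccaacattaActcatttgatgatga
SNX29P2 exon 4, second window: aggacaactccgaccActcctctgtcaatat
SNX29P1 exon 4, second window: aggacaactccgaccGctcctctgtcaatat

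These differences are few enough that long stretches cannot be told apart. The longest run of identical bases was 408 between SNX29P2 and SNX29P1, 92 between SNX29P2 and SNX29, and 97 between SNX29P1 and SNX29. Of all windows of 50 bases in the 4 joined exons of SNX29P2, 76.0% were found letter for letter in SNX29P1 and 13.4% in SNX29. With windows of 75 bases the shares were 65.9% and 2.50%. With 100 bases they were 56.8% and 0%, and with 150 bases 47.0% and 0%. The read length is not given in the sources used here, so these shares are given for a range of lengths.

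**Figure D2:**
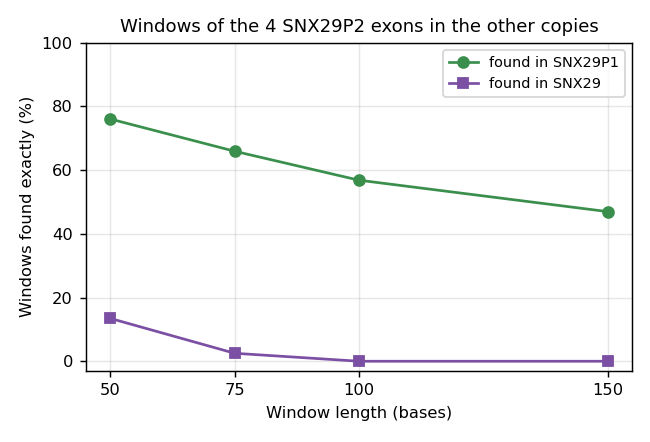
Share of windows of the 4 joined SNX29P2 exons that occur letter for letter in SNX29P1 or in SNX29 (y axis, %), against the window length in bases (x axis). The share in SNX29P1 goes from 76.0% at 50 bases to 47.0% at 150 bases, and the share in SNX29 from 13.4% to 0%.

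The 4 exons were also looked for in the 206694 GENCODE 29 transcripts that were scanned. Windows of 50 bases from them were found in transcripts of SNX29, SNX29P1 and SNX29P2 and of no other gene. The 6 exons that RP11-231C14.7 has ahead of SNX29P2 gave a different picture. They held windows found in BANP, which encodes a nuclear matrix protein, and in AC008740.1, AC009093.10, AC025279.1 and AC138512.1. The last exon of the SNX29P2 row shared windows with 10 other genes, CFLAR and ENTPD1 among them. The further 1838 bases of the last exon of RP11-231C14.7 were not scanned.

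The longest reading frame from a start codon to a stop codon was the same in both annotated SNX29P2 transcripts that were read for it. It had 268 codons, 807 bases with the stop codon, and ran over 5 exons at chr16:29355940-29369619. All of its bases lay in the part shared by SNX29P2 and RP11-231C14.7. It began at base 154 of exon 1, which aligned with the first base of codon 134 of the 812 codons of SNX29, so both are read in the same frame there. The base at position 52 of that exon, absent from SNX29, lay ahead of this start. The longest frame of SNX29P1 began at the matching base and had 241 codons, at chr16:21376801-21385936. No protein was measured, and a reading frame in a transcript is a description of its letters.

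Against this sequence background, the libraries held 38.5 to 48.6 reads in genes in units of 1000000, and RPKM values were multiplied back to whole reads for every gene. OTUB2, the other introduced gene, had 37.6, 42.6 and 38.4 RPKM (reads per kilobase of exon and 1000000 reads) in its own libraries and 1.04 to 1.58 RPKM in the other 6. Of 11 measured markers of the line, 6 had a median of at least 1 RPKM, led by VIM at 1051 and KRT7 at 121 RPKM. The epithelial markers KRT19 and EPCAM had medians under 0.1 RPKM. Of 8 leukocyte and endothelial markers, 5 including PTPRC, CD3E and PECAM1 had medians under 0.1 RPKM, while CD68 was at 32.2 and CDH5 at 22.0 RPKM.

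The SNX29P2 row held few reads in cells that did not receive the gene and many in cells that did. In the vector libraries it had 6, 2 and 0 reads, or 0.0665, 0.0246 and 0 RPKM. In the OTUB2 libraries it had 2, 2 and 0 reads, or 0.0223, 0.0195 and 0 RPKM. In the SNX29P2 libraries it had 3976, 4652 and 4750 reads, or 41.0, 55.1 and 47.6 RPKM. The groups without the transgene overlapped each other and neither came near the third. A library with 0 reads allows up to 3 reads, which is 0.0343 RPKM in the third vector library and 0.0356 RPKM in the third OTUB2 library. This check of the introduced gene matched the labels in all 9 libraries. Reads of SNX29P2 in stretches identical to SNX29P1 could have been counted in the SNX29P1 row, which was not tested.

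Group means of SNX29P2 were 0.0304 ± 0.0336 RPKM for vector, 0.0139 ± 0.0122 for OTUB2 and 47.9 ± 7.04 for SNX29P2 (SD, n = 3). In its own group it ranked 1013 of 32997 rows by mean RPKM, with 96.9% of the rows below it. Scaled for depth, the reads of the SNX29P2 group exceeded those of the vector group 1541-fold, with a 95% exact counting interval of 782 to 3570. All 9 read counts of SNX29P2 were even numbers, and so were those of RP11-231C14.7, against 6 of 9 for SNX29 and for SNX29P1. With each pair of reads counted as 1, the interval widened to 601 to 5657. These intervals cover counting error only, since reads without molecular identifiers are not independent molecules.

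RP11-231C14.7, the longer row over the same exons, had read numbers close or equal to these. In the SNX29P2 libraries it had 3976, 4652 and 4750 reads, the same as SNX29P2 in each library. Because its exons are 2.28 times as long in sum, equal read numbers gave 18.0, 24.2 and 20.9 RPKM. With vector it had 6, 2 and 2 reads, or 0.0292, 0.0108 and 0.010 RPKM, and with OTUB2 2, 4 and 0 reads, or 0.00978, 0.0171 and 0 RPKM. The rows differed in the third vector library, with 2 reads against 0, and in the second OTUB2 library, with 4 against 2. If reads in shared bases were counted in both rows, any reads of these libraries in the 3205 bases of RP11-231C14.7 alone would have to be matched in number by reads in the 500 bases of SNX29P2 alone. The sources used here do not say how such reads were counted.

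SNX29P1, which lies elsewhere on the chromosome and was not introduced by the design, had a row that was also higher in the SNX29P2 group. With vector it had 16, 6 and 12 reads, or 0.372, 0.155 and 0.288 RPKM. With OTUB2 it had 16, 18 and 4 reads, or 0.375, 0.368 and 0.0995 RPKM. With SNX29P2 it had 1029, 1289 and 1215 reads, or 22.3, 32.0 and 25.6 RPKM. The vector and OTUB2 libraries overlapped, and every SNX29P2 library stood far above both.

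Group means of SNX29P1 were 0.272 ± 0.110, 0.281 ± 0.157 and 26.6 ± 4.97 RPKM (SD, n = 3). Its rank by mean RPKM went from 17733 with vector to 2002 with SNX29P2. Scaled for depth, the reads exceeded those of the vector group 95.7-fold, with a 95% exact counting interval of 68.4 to 138. This interval too covers counting error only and may be too narrow. SNX29P1 and SNX29P2 cannot be told apart over the identical stretches given above, so the SNX29P1 row is uncertain as a measure of its own locus. Whether any of these reads came from the SNX29P1 locus was not tested.

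The split of reads between the pseudogenes was not the same with and without the transgene. Of the reads of SNX29P1 and SNX29P2 together, SNX29P1 held 20.6%, 21.7% and 20.4% in the SNX29P2 libraries, with exact binomial 95% intervals of 19.4 to 21.7%, 20.7 to 22.8% and 19.4 to 21.4%. These libraries had 5005, 5941 and 5965 such reads. The intervals of shares, here and below, treat each read as independent. The even counts of SNX29P2 leave that in doubt, so the intervals may be too narrow. In the vector libraries SNX29P1 held 72.7%, 75.0% and 100% of 22, 8 and 12 reads. In the OTUB2 libraries it held 88.9%, 90.0% and 100% of 18, 20 and 4 reads. All 6 libraries without the transgene were above all 3 with it, although their intervals were wide. The introduced gene adds SNX29P2 reads to the sum, so a lower SNX29P1 share with it was set by the design. No support is taken from this gap.

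Pooled over a group, SNX29P1 held 34 of 42 reads with vector, which is 81.0% (exact binomial 95% interval 65.9 to 91.4%). With OTUB2 it held 38 of 42 reads, which is 90.5% (77.4 to 97.3%). With SNX29P2 it held 3533 of 16911 reads, which is 20.9% (20.3 to 21.5%). Expressed against SNX29P2 itself, SNX29P1 had 25.9, 27.7 and 25.6 reads per 100 reads of SNX29P2 in the 3 SNX29P2 libraries. Reads in identical stretches can fall in either row in every group, so these are shares of rows and not of loci. The plot of shares by library shows the narrow intervals of the SNX29P2 group and the wide intervals of the others.

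**Figure D3:**
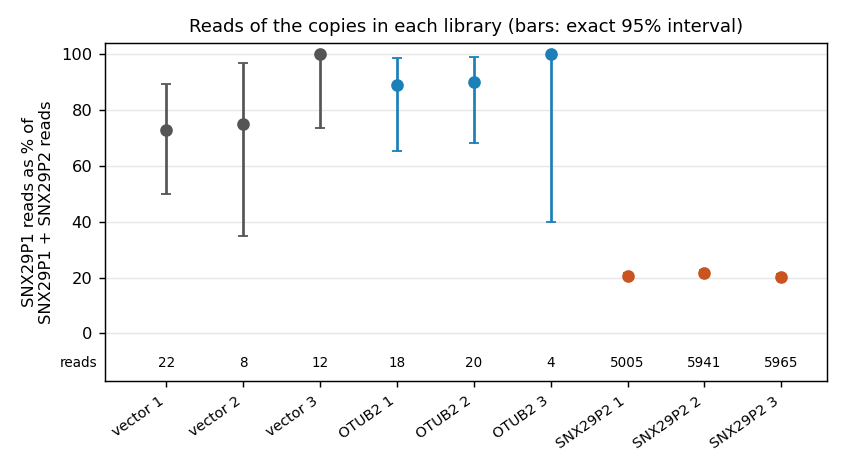
Reads of SNX29P1 as a share of the reads of SNX29P1 and SNX29P2 together (y axis, %) in each of the 9 libraries (x axis), with exact binomial 95% intervals as bars. The SNX29P2 libraries lie at 20.4 to 21.7%, and the 6 libraries without the transgene at 72.7 to 100%.

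SNX29, the parent gene, had a low level with overlapping values in all 3 groups. With vector it had 879, 694 and 658 reads, or 1.82, 1.60 and 1.41 RPKM. With OTUB2 it had 768, 801 and 666 reads, or 1.60, 1.46 and 1.48 RPKM. With SNX29P2 it had 978, 701 and 840 reads, or 1.89, 1.55 and 1.58 RPKM. The 3 groups overlapped, and the first library was the highest of its group in each of them. Of windows of the 4 SNX29P2 exons, 13.4% at 50 bases, 2.50% at 75 bases and 0% at 100 bases occur exactly in SNX29. With the read length unknown, the SNX29 row could also hold reads of the transgene in the SNX29P2 group. Whether it did was not tested.

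Group means of SNX29 were 1.61 ± 0.207, 1.51 ± 0.0779 and 1.67 ± 0.187 RPKM (SD, n = 3). Its rank by mean RPKM was 12657, 12773 and 12459 of 32997 rows. By reads, SNX29 made up 98.2% of the reads of SNX29, SNX29P1 and SNX29P2 with vector, 98.2% with OTUB2 and 13.0% with SNX29P2. Inside the span of SNX29 the table held 5 other rows, none above 0.153 RPKM.

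In RPKM, which is a level per length, the order of the members turned over between groups. With vector and with OTUB2, SNX29 was highest, SNX29P1 next, and SNX29P2 and RP11-231C14.7 lowest with overlapping ranges. With SNX29P2, SNX29P2 itself was highest at 41.0 to 55.1 RPKM. SNX29P1 at 22.3 to 32.0 RPKM and RP11-231C14.7 at 18.0 to 24.2 RPKM overlapped, and SNX29 was lowest. This overlap depends on row length. By reads, RP11-231C14.7 equalled SNX29P2 at 3976 to 4750 in this group, above SNX29P1 at 1029 to 1289. The plot of values by library shows this order.

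**Figure D4:**
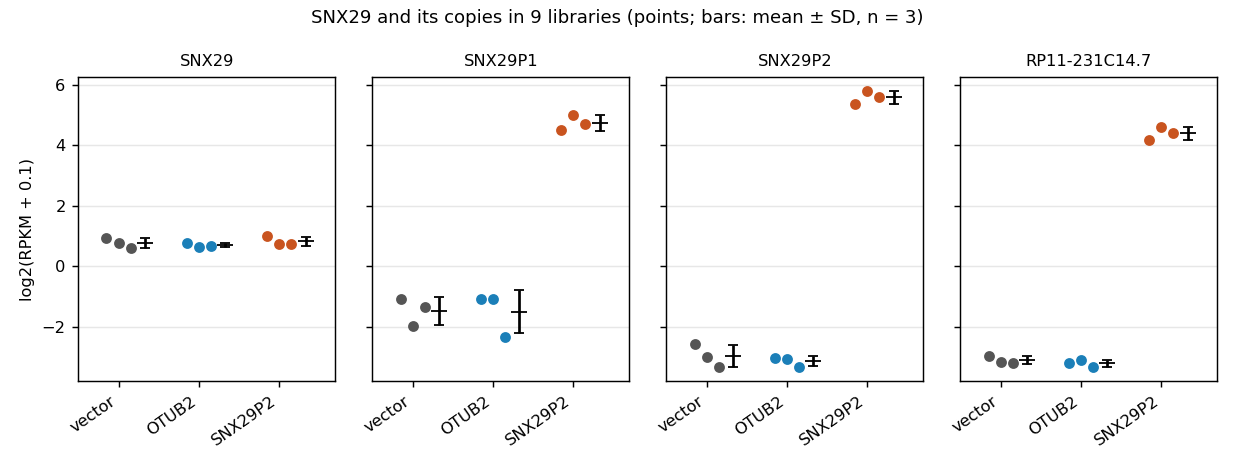
Levels of SNX29, SNX29P1, SNX29P2 and RP11-231C14.7 as log2(RPKM + 0.1) on the y axis, by group on the x axis, with a point for each of the 9 libraries and the mean ± SD (n = 3) beside them. SNX29 lies at 1.41 to 1.89 RPKM in all libraries, while the 3 other rows lie under 0.4 RPKM without the transgene and at 18.0 to 55.1 RPKM with it.

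The comparison of SNX29P2 with vector was tested with limma on log2(RPKM + 0.1) across the 16533 genes that reached 0.5 RPKM in 3 or more libraries. A total of 6 genes, 0.0363% of those tested, passed a Benjamini-Hochberg adjusted p of 0.05, and 3 of them were higher, 0.0181%. SNX29P2, SNX29P1 and RP11-231C14.7 were these 3. Each passed the filter only through its 3 SNX29P2 libraries, so each had to differ to be tested, and no support is taken from that fit for them. Their log2 fold changes are given as descriptions.

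The log2 fold change was 8.55 for SNX29P2, 7.49 for RP11-231C14.7, whose read numbers equal those of SNX29P2 in this group, and 6.20 for SNX29P1. With no filter all 32997 rows were tested, and limma called 8, 0.0242%. In that fit the adjusted p was 2.38e-06 for SNX29P2 (SE 0.235) and for RP11-231C14.7 (SE 0.206), and 0.000987 for SNX29P1 (SE 0.370). SNX29P2 was introduced by the design and RP11-231C14.7 holds the same reads, so their p-values add nothing to the check of the labels. For SNX29P1, the p concerns the row, which is uncertain as a measure of its own locus. The size of these 3 changes depends on the pseudocount, because the vector values lie near or under it: with a pseudocount of 1 they were 5.56, 4.43 and 4.43 for SNX29P2, RP11-231C14.7 and SNX29P1, and with 0.01 they were 10.64, 9.69 and 6.63. An exact two-sided permutation test over 3 against 3 libraries gave 0.1 for each of them, the smallest p this design allows. Their libraries did not overlap between the groups, as was so for 11.7% of all genes tested.

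SNX29 itself did not pass the test. Its log2 difference between SNX29P2 and vector was 0.05 (95% interval -0.25 to 0.36, limma adjusted p = 0.95), which is a ratio of 1.04 with an interval of 0.840 to 1.28. The exact permutation p was 0.7. With 3 libraries a group, this interval gives the differences of SNX29 that the values allow. It is not a limit of detection, since larger differences can also miss the adjusted threshold over 16533 genes. The p does not show that the groups are alike.

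Between OTUB2 and vector, limma called 3 genes, 0.0181% of those tested, of which 1 was higher, 0.00605%, and none of the 4 members was among them. The log2 differences were -0.08 for SNX29 (95% interval -0.38 to 0.23, limma adjusted p = 0.961) and -0.03 for SNX29P1 (-0.81 to 0.76, limma adjusted p = 0.996). For SNX29P2 and RP11-231C14.7 they were -0.17 (-0.69 to 0.35) and -0.10 (-0.60 to 0.40). By reads scaled for depth, the ratio of OTUB2 to vector was 1.05 for SNX29P1, with a 95% exact counting interval of 0.641 to 1.71, and 0.468 for SNX29P2, with an interval of 0.103 to 1.75. The libraries of each member overlapped between these groups, while they did not for 10.8% of all genes tested. With 42 reads of the pseudogenes in each group, these counting intervals are wide. They give the changes that counting error allows at this depth and are not limits of detection.

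The SNX29P2 group was also set directly against OTUB2, a comparison that shares its libraries with those above. The log2 differences were 8.72 for SNX29P2, 7.59 for RP11-231C14.7 and 6.22 for SNX29P1. Limma called 4 genes, 0.0242% of those tested and 0.0181% counting higher ones alone, but these 3 again entered the test only through the SNX29P2 libraries. With no filter, limma called 6 of 32997 rows, 0.0182%, with an adjusted p of 2.13e-06 for SNX29P2 and RP11-231C14.7 and 0.000716 for SNX29P1. These p-values have the same limits as those against vector. The libraries of these 3 did not overlap between the groups, as was so for 8.35% of all genes tested. SNX29 differed by 0.13 (95% interval -0.17 to 0.44, limma adjusted p = 1.00). Its pooled reads alone gave a ratio of 1.11 with an exact counting interval of 1.05 to 1.18, which leaves out 1. The spread between libraries of a group was larger than counting error, so that interval is too narrow for a difference between the groups.

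The rest of the sorting nexin family was then described from a list of family members. With SNX29P2 against vector, 30 of 32 listed sorting nexins were tested, 23 had a higher and 7 a lower mean, and limma called 0. An unadjusted limma p under 0.05 was found for 1 of them, against 8.21% of all genes tested in this comparison. Limma voom on the recovered reads also called 0. Their median log2 difference was 0.07, against 0.01 for all genes tested, and 0.03 without SNX29P2 replicate 1. SNX33, which acts in endocytosis, had the smallest p in the list with a log2 difference of -0.23 (limma adjusted p = 0.589). SNX4, a nexin of recycling endosomes and autophagy, was at 0.20, and SNX21 at -0.20.

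The retromer and the Commander complex, which sort endosomal cargo together with sorting nexins, were described next. All 18 listed subunits were tested, 11 were higher and 7 lower, and limma and voom each called 0, with 2 at an unadjusted limma p under 0.05, beside the 8.21% of all genes. Their median log2 difference was 0.05, and 0.0073 without SNX29P2 replicate 1. COMMD8, a Commander subunit, was at 8.91 ± 0.799 RPKM with vector and 11.8 ± 1.12 with SNX29P2 (SD, n = 3), a log2 difference of 0.40 (limma adjusted p = 0.488). VPS26A and VPS35, the arrestin-like and scaffold subunits of retromer, were at 0.33 and 0.10.

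Other RUN domain proteins had more members lower than higher. Of 17 listed, 14 were tested, 4 were higher and 10 lower with SNX29P2, with a median of -0.08 that was -0.04 without vector replicate 1 and -0.05 without SNX29P2 replicate 3. Limma and voom called 0, and 0 had an unadjusted limma p under 0.05. SGSM2, a regulator of Rab GTPases, was at -0.26, RUFY1, an endosomal effector, at -0.20, and RUSC2 at -0.17. With OTUB2 against vector, 16 of 30 sorting nexins, 13 of 18 retromer and Commander subunits and 5 of 14 RUN domain proteins were higher, and either tool called 0. An unadjusted limma p under 0.05 was found for 2, 3 and 2 of them, against 6.73% of all genes tested.

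Other families duplicated on chromosome 16 were examined because they too have nearly identical copies there. Of 28 listed rows, 20 were tested, 4 were higher and 16 lower with SNX29P2, with a median of -0.07, and limma and voom called 0. The median was -0.12, -0.15, -0.14 and -0.12 without SNX29P2 replicate 2, SNX29P2 replicate 3, vector replicate 1 and vector replicate 3. At an unadjusted limma p under 0.05 there were 3, beside the 8.21% of all genes. The pseudogenes SLC7A5P2, PKD1P1 and PKD1P5 were at -0.43, -0.18 and -0.26 (smallest limma adjusted p in the list 0.586). With OTUB2 5 of these rows were higher and 15 lower. None of the tested rows of these families was near the fold changes of the SNX29 copies, the highest log2 difference being 0.12 with SNX29P2.

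The neighbours of each member on chromosome 16 were also described. Within 500 kb of SNX29P2, 36 of 52 rows were tested, 13 were higher and 23 lower than with vector, with a median of -0.04 that was 0.01 without SNX29P2 replicate 3. Limma and voom called 0, with 5 at an unadjusted limma p under 0.05, where 8.21% of all genes tested had such a p. The nearest tested genes on either side, RP11-264B17.3 and NPIPB11, were at 0.06 and 0.01. QPRT, an enzyme of NAD synthesis, lay within this window at 4.47, 4.73 and 2.28 RPKM with vector and 1.62, 1.80 and 1.45 with SNX29P2, a log2 difference of -1.13 (limma adjusted p = 0.488). Its libraries did not overlap between these groups, as with the 11.7% of all genes given above, and with OTUB2 it was at 1.46, 1.80 and 1.14 RPKM. AC009133.22, which overlaps QPRT on the same strand, was at -1.10 and MVP, the major vault protein gene, at -0.27.

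Within 500 kb of SNX29P1, 12 of 24 rows were tested, 7 higher and 5 lower. Their median of 0.03 ranged from -0.0084 without SNX29P2 replicate 2 to 0.08 without SNX29P2 replicate 1, and every left-out library moved it by over 1.5 times. Its nearest tested neighbours, CTD-2547E10.3 and NPIPB3, were at 0.65 and 0.02, the former with 0 to 0.785 RPKM over the 9 libraries. METTL9, a histidine methyltransferase gene, was at 0.12 and LYRM1 at 0.11, and SLC7A5P2 of the duplicated families also lies here. Around SNX29, 6 of 25 rows were tested, 5 higher and 1 lower, with a median of 0.11 that was 0.04 without vector replicate 1 and 0 with no filter, where all 25 rows enter. RSL1D1, a nucleolar protein gene with the smallest p there, was at 0.18, with ZC3H7A at 0.15 and RP11-490O6.2 at 0.32. The nearest tested genes on either side were GSPT1, at 0.08, and ERCC4, which lies beyond the 500 kb window, at 0.10. Limma and voom called 0 in both windows, with 1 at an unadjusted limma p under 0.05 in each, beside the same 8.21%. The plot of list members shows all of these differences on 1 scale.

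**Figure D5:**
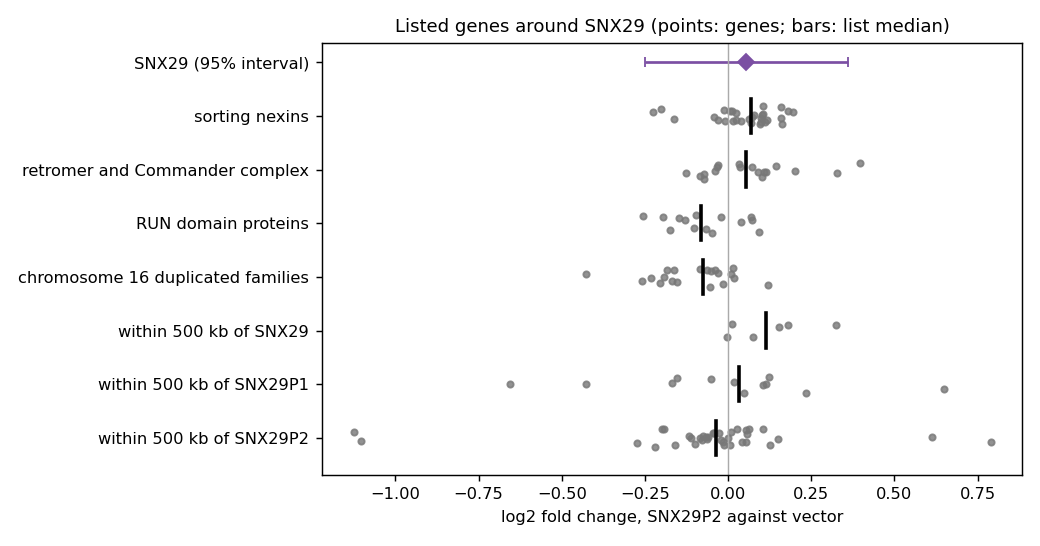
Log2 difference of SNX29P2 against vector (x axis) for each tested gene of the lists and of the 500 kb windows around each member (y axis), with list medians as vertical bars and SNX29 with its 95% interval at the top. Medians lie from -0.08 for RUN domain proteins to 0.11 for the window around SNX29, and no gene of these lists was called.

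Across the 9 libraries, the genes with levels most like SNX29 on the log2 scale, of 16532 compared, were USP30 (Pearson r = 0.957), DNAL4 (0.955), BLVRA (0.946), RP11-103H7.5 (0.944) and RP11-177B4.1 (0.943). These are descriptions of the most similar of many genes, and the libraries share replicate numbers. USP30, a mitochondrial deubiquitinase, had 2.42, 2.02 and 1.78 RPKM with vector and 2.65, 2.03 and 1.94 RPKM with SNX29P2, with the first library highest in both groups as for SNX29. SNX29 had lower correlations with its copies, at r = 0.357 with SNX29P1 and 0.373 with SNX29P2. For SNX29P2, RP11-231C14.7 (1.00) and SNX29P1 (0.993) were the only tested genes past 0.95. These copies passed the filter only through the SNX29P2 libraries, where RP11-231C14.7 had the same reads as SNX29P2. Their correlations therefore restate the difference between libraries with and without the transgene, and no support is taken from them.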

How the data were processed

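RNA of ES-2 cells was measured in 9 libraries, 3 per genotype. The authors deposited 1 table of RPKM values, per the file headers, beside the exons and length of each gene. The genome build was GRCh38, per the submitters' processing notes. The sources used here do not give the aligner, the counting program, the read length, or how strand and multiply matching reads were handled.

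Below 1000 reads, 100% of values came out as whole reads (tolerance 0.05 reads), so reads were recovered from RPKM and gene length, 38.5 to 48.6 per library in units of 1000000. Values were log2(RPKM + 0.1). The fitted fold changes are on this scale and understate changes of low genes. Genes with at least 0.5 RPKM in 3 libraries entered 1 fit over all 9 libraries with limma 3.58.1 in R 4.3.3, with trended variances and no term but group, with Benjamini-Hochberg adjustment over 16533 genes. The fit was also run on simulated reads drawn independently for each library. Its outcome is not given here, and no result rests on it. Alternatives were pseudocounts of 1 and 0.01, no filter, 1 RPKM in 6 libraries, median-of-ratios scaling, each library left out, a replicate block, a fit of the compared groups alone and, chosen after seeing the data, limma voom on recovered reads. The design named a count test had the table held counts.

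Exons were taken from GENCODE 29 and aligned with biopython 1.88. Members and lists were chosen with earlier results of these data known. The genes named are the 4 members, OTUB2, the 3 list members with the smallest p in SNX29P2 against vector, the nearest tested neighbours, the 5 genes most correlated with SNX29, and those past 0.95 with SNX29P2. BANP, CFLAR, ENTPD1 and the other genes sharing windows were named for their sequence. 3 comparisons were made, and p-values are not adjusted across them. Intervals of read shares and read ratios are exact at 95%, and those of log2 differences are limma's moderated 95% intervals.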

Additional observations from a re-analysis of the deposited data

How the results depend on the processing

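Of 159 refits of the members, 151 kept their direction and their side of the threshold. The other 8 turned the sign of a difference that was not called. SNX29 in SNX29P2 against vector was -0.03 without SNX29P2 replicate 1 and -0.0319 without vector replicate 3 (range over left-out libraries -0.0319 to 0.14), and with OTUB2 it was 0.0111 without vector replicate 1 (-0.16 to 0.0111). SNX29P1 with OTUB2 was 0.00613 with a pseudocount of 1, and 0.39, 0.17 and 0.03 without OTUB2 replicate 3, vector replicate 1 and vector replicate 3 (-0.28 to 0.39). SNX29P2 with OTUB2 was 0.0240 without vector replicate 1 (-0.34 to 0.0240). The cause was not tested.

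Genes called between SNX29P2 and vector fell from 6 to 1 with the filter of 1 RPKM in 6 libraries, which removes the 3 copies, and came to 10 with voom. Between SNX29P2 and OTUB2 that filter left 1 of 4. Between OTUB2 and vector, 3 became 7 without a filter and 1 with only the compared groups, and 1 to 8 with libraries left out. Of 294 list medians, 272 moved by less than the spread and 22 by more. With the replicate block, calls were 9, 4 and 4. Same-numbered libraries correlated at -0.0178 to 0.270 in their deviations, above 0.1 in 7 of 9 pairs, and each library correlated best with its own number. This is a hint of pairing from the data and not the design. The labels name no pairing, so the main fit left the libraries unpaired, and its errors ignore this structure. For SNX29P2 against vector, the median SE was 0.126 in the main fit and 0.0989 with the replicate block. An unadjusted limma p under 0.05 was found for 8.21% and 13.7% of genes.

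The 4 to 22 reads of SNX29P1 and SNX29P2 in each library without the transgene limit the shares and ratios there.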
